A study of Homo sapiens with 2 samples.

Results

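Krüppel-like factors (KLF) are zinc finger transcription factors that bind GC-rich and CACCC-type DNA sequences. The 10 genes KLF2, KLF3, KLF4, KLF5, KLF6, KLF7, KLF9, KLF10, KLF11 and KLF13 were examined in HSC-1 cells after knockdown of the lncRNA LINP1. They were chosen by gene symbol from a table of 44591 genes, with earlier results of these data known, and all 10 were found there. HSC-1 is a line established from a cutaneous squamous cell carcinoma. One group received the control siRNA siNC and the other received siLINP1, an siRNA against LINP1, and each group had 1 library of total RNA. Per the labels, both cultures were transfected at about 70% confluency, kept for 6 h in DMEM without serum, and then returned for 24 h to DMEM with 10% serum. The study's methods give another confluency and another time to harvest for siRNA transfections. Which of the designed LINP1 oligonucleotides was sequenced is not given in the sources used here.

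With 1 library per group no difference has a replicate check and no p-value was computed. Every interval below is a 95% interval that covers counting error only. In bulk RNA, fewer cells of a type and less RNA per cell cannot be told apart. The total count was 18829544 reads for siNC and 15383081 for siLINP1. LINP1 itself went from 167 reads in siNC to 23, a log2 fold change of -2.65 (-3.35 to -2.02) after scaling by median-of-ratios size factors. The line was checked against markers of squamous keratinocytes. Of 7 such markers, 3 (KRT5, TP63 and DSG3) were under 1 RPKM (the count divided by the gene's length and the library's total) in both libraries, and none was at 0 reads. The summed level of the 7 was 71.5 RPKM in siNC and 53.9 RPKM in siLINP1, of which ITGB4 alone had 51.4 and 41.6. A set of 5 mesenchymal genes summed to 2033 and 1667 RPKM, nearly all from VIM (1519 and 1278) and SPARC (505 and 382). The others of that set, FN1, COL1A1 and COL1A2, had at most 6.80 RPKM in either library. By more than 1.5-fold, 2 of the 7 keratinocyte markers were higher and 2 were lower in siLINP1. Among all genes with at least 10 reads, 14.4% were higher and 13.0% were lower. KRT6A (31 and 45 reads) and TP63 (6 and 8 reads) were higher, and KRT14 (243 and 87 reads) and SFN (264 and 138 reads) were lower. Of the 5 mesenchymal genes, COL1A2 (4 and 8 reads) was higher and COL1A1 (190 and 79 reads) was lower. The intervals of TP63 and COL1A2 held no change. The part of these genes in the KLF values was not tested. Markers of endothelial cells and of leukocytes had at most 12 reads in either library.

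The KLF proteins share a C-terminal array of zinc fingers, and they differ in the N-terminal part, which recruits coactivators or corepressors. KLF2, KLF4, KLF5, KLF6 and KLF7 belong to the branch that binds acetyltransferases. KLF3 belongs to the branch that recruits the corepressor CtBP, and KLF9, KLF10, KLF11 and KLF13 to the branch that recruits SIN3A. In stratified epithelium KLF4 is known for barrier formation in differentiating cells, and KLF5 for its expression in proliferating basal cells. Several KLF genes are also known as early response genes of serum, stress and TGF-beta.

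The KLF genes were on balance read more often in siLINP1-treated HSC-1 cells. Of the 10 genes, 8 were higher in siLINP1 with the interval above no change, KLF9 was lower with the interval below it, and the interval of KLF13 held no change. Of the 13336 genes with at least 100 reads, 46.8% were higher in siLINP1, 28.8% had the whole interval above no change and 33.4% had it below. The 10 genes together summed to 11401 reads in siNC and 16289 in siLINP1, which is 0.0605% and 0.106% of the reads on genes. This is a log2 fold change of 0.72 (0.69 to 0.76). Their summed level went from 137 RPKM to 259 RPKM. The median log2 fold change of the 10 genes was 0.63, against -0.03 over the 13336 genes with at least 100 reads.

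At a threshold of 1.5-fold, 5 of the 10 genes were higher (KLF10, KLF4, KLF6, KLF11 and KLF2) and 0 were lower. Among the 19840 genes whose summed count was 10 or more, 14.4% were higher and 13.0% were lower by this fold. All 10 KLF genes were read well, with 654 to 6503 reads, so the 13336 genes with at least 100 reads are the closer background. Of these, 8.72% were higher and 6.77% were lower by more than 1.5-fold. A 2-fold increase was passed by 2 of the 10 KLF genes (KLF10 and KLF4), against 2.71% of the 13336 genes. The whole interval lay above 1.5-fold for 3 KLF genes (KLF10, KLF4 and KLF6), against 4.18% of the 13336 genes. It lay below a 1.5-fold decrease for 0 KLF genes, against 1.97%. KLF2 was the gene just past 1.5-fold, at 1.62-fold, and KLF5 was the gene just short of it, at 1.47-fold. Scaling by the total count of the library put KLF5 past the threshold as well, at a log2 fold change of 0.64, so that 6 of the 10 genes were higher. Under that scaling 11.0% of the 13336 genes were higher by more than 1.5-fold.

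**Figure D1:**
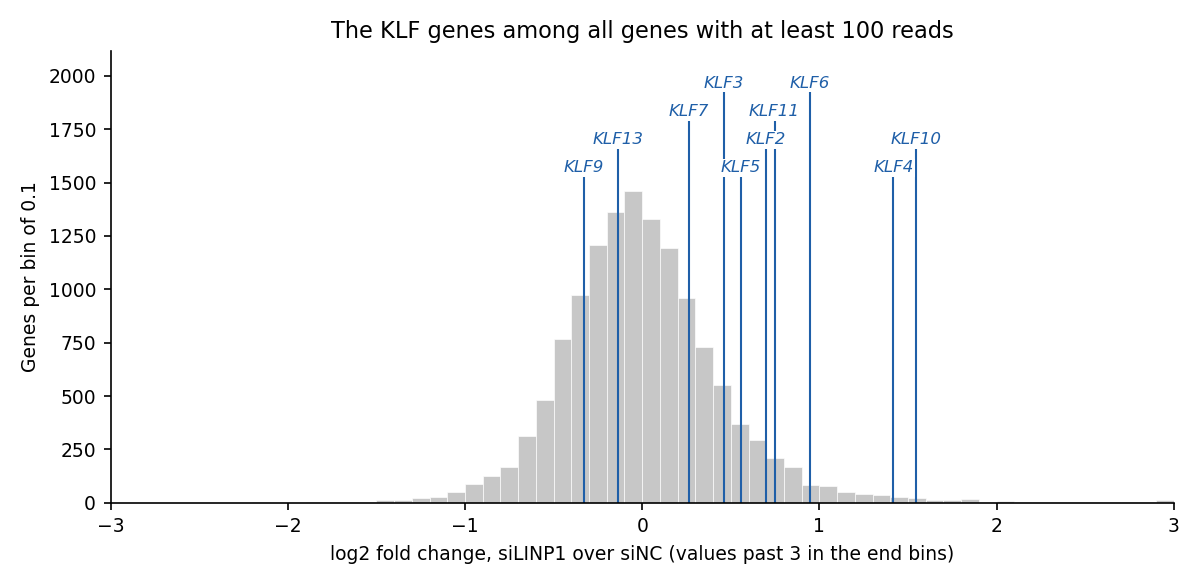
Histogram of the log2 fold change of siLINP1 over siNC for the 13336 genes with at least 100 reads (grey bars, genes per bin of 0.1), with the 10 KLF genes as blue lines. KLF10 and KLF4 lie in the right tail at 1.55 and 1.42, and KLF9 and KLF13 are the only KLF genes left of 0, inside the bulk of the genes.

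KLF4, one of the reprogramming factors and a regulator of the epidermal barrier, spans bases 110247133 to 110252001 of chromosome 9, minus strand, in the authors' hg19 coordinates. Its reads numbered 670 in siNC and 1548 in siLINP1, levels of 11.9 and 33.7 RPKM. Its fold change was 2.67 (2.44 to 2.93), larger than that of 98.9% of the genes with at least 100 reads. Fold changes here and below are of scaled counts, so they differ from the ratios of the RPKM values. KLF6, known as a gene induced on tissue injury and as an activator of CDKN1A, lies on chromosome 10 (3818188 to 3827473, minus strand). It had 1347 and 2247 reads, levels of 15.3 and 31.3 RPKM. Its fold change was 1.93 (1.80 to 2.07). KLF2, best known for quiescence in endothelium and T cells, lies on chromosome 19 (16435637 to 16439473, plus strand). It had 272 and 382 reads, the lowest total of the 10 genes. Its fold change of 1.62 therefore had a wide interval (1.39 to 1.90), which reached below 1.5-fold.

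KLF5 was the KLF gene with the highest level in siNC. It lies on chromosome 13 (73629114 to 73651680, plus strand). Its reads numbered 2861 in siNC and 3642 in siLINP1, levels of 40.5 and 63.2 RPKM. Its fold change was 1.47 (1.40 to 1.55), smaller than that of KLF4 in the same branch. KLF7, known for its role in the outgrowth of neurons, lies on chromosome 2 (207938861 to 208031970, minus strand). It had nearly the same number of reads in both libraries (1037 and 1076), which after scaling is a fold change of 1.20 (1.10 to 1.31). All 5 genes of the acetyltransferase-binding branch were thus higher in siLINP1, over a range of log2 fold changes from 0.26 to 1.42.

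KLF3, a repressor that acts through CtBP, was the only member of its branch among the 10 genes. It lies on chromosome 4 (38665790 to 38703129, plus strand) and was read 811 times in siNC and 966 times in siLINP1. Its level went from 7.67 to 11.2 RPKM. On scaled counts its fold change was 1.38 (1.25 to 1.51). The antisense gene KLF3-AS1 overlaps its start and had 18 and 34 reads. The strand setting of the counting is not given in the sources used here, so reads in the overlap cannot be assigned to a strand. The antisense reads are few beside those of KLF3.

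The SIN3A-binding branch held both the largest increase and the largest decrease of the family. KLF10, first described as TGF-beta inducible early gene 1, lies on chromosome 8 (103661005 to 103668130, minus strand). Its reads numbered 1653 in siNC and 4177 in siLINP1, levels of 24.4 and 75.6 RPKM. The fold change was 2.92 (2.76 to 3.09), larger than that of 99.1% of the genes with at least 100 reads. KLF11, its close relative and also known as a gene induced by TGF-beta, lies on chromosome 2 (10183682 to 10194963, plus strand). It had 348 and 505 reads, a fold change of 1.68 (1.46 to 1.93). An antisense gene that overlaps KLF11 had 38 and 35 reads.

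KLF9, a target of the glucocorticoid receptor, lies on chromosome 9 (72999513 to 73029573, minus strand). It was read 1447 times in siNC and 995 times in siLINP1, levels of 14.8 and 12.4 RPKM. Its log2 fold change was -0.33 (-0.45 to -0.21), and it was the only one of the 10 genes whose whole interval lay below no change. KLF13, known as an activator of CCL5 in T lymphocytes, lies on chromosome 15 (31619058 to 31727868, plus strand). It had 955 and 751 reads, levels of 7.12 and 6.86 RPKM. Its log2 fold change of -0.14 had an interval from -0.28 to 0.0022, so a difference was not detectable at this depth. The percentiles of KLF9 and KLF13 among the genes with at least 100 reads were 20.5 and 38.3, inside the bulk of the genes. The 4 genes of this branch among the 10 were thus 2 higher and 2 lower, with a median log2 fold change of 0.30. The other KLF genes given below were not assigned to a branch, so this median does not describe the whole branch.

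**Figure D2:**
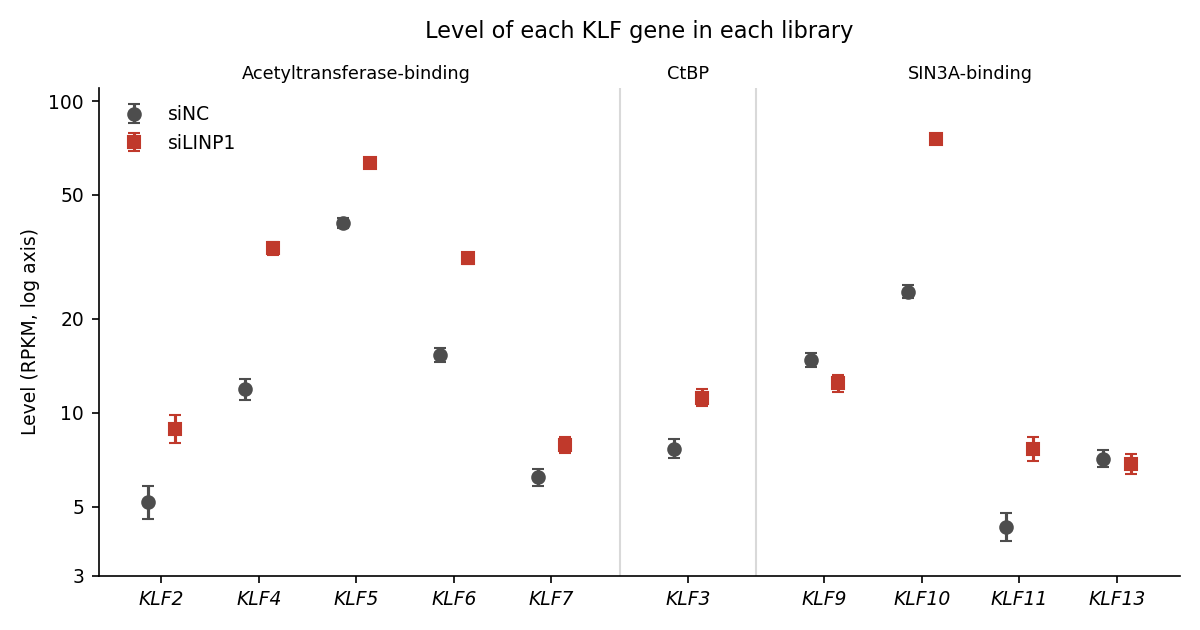
Level of each of the 10 KLF genes in RPKM (log axis) in the siNC library (grey circles) and the siLINP1 library (red squares), grouped by branch; bars are 95% Poisson intervals of the read count, with 1 library per condition. KLF10 moves from 24.4 to 75.6 RPKM and passes KLF5, while KLF9 and KLF13 are the only genes with the red square below the grey circle.

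The order of levels within the family differed between the libraries. In siNC, KLF5 had the highest level per length, followed by KLF10 at 24.4 RPKM, and KLF11 had the lowest at 4.30 RPKM. Neighbours in this order whose intervals overlapped were KLF6 and KLF9, KLF3 and KLF13, and KLF2 and KLF11. In siLINP1, KLF10 had the highest level, then KLF5, then KLF4 and KLF6, whose intervals overlapped at 33.7 and 31.3 RPKM. KLF13 was last at 6.86 RPKM, and its interval overlapped that of KLF11 at 7.64 RPKM. The intervals of the neighbours KLF9 and KLF3, KLF2 and KLF7, and KLF7 and KLF11 overlapped there as well. KLF4 was the fifth highest gene in siNC and the third in siLINP1. KLF9 was the fourth and then the fifth, and KLF13 was the seventh and then the last. Both KLF9 and KLF13 had a neighbour with an overlapping interval in each library, so these places are not firm.

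The split of reads among the 10 genes needs no scaling between libraries. KLF10 held 14.5% (13.9 to 15.2) of the KLF reads in siNC and 25.6% (25.0 to 26.3) in siLINP1. KLF4 held 5.88% (5.45 to 6.32) and 9.50% (9.06 to 9.96). The shares of KLF9 and KLF13 were smaller in siLINP1. KLF9 held 12.7% (12.1 to 13.3) in siNC and 6.11% (5.75 to 6.49) in siLINP1, and KLF13 held 8.38% (7.87 to 8.90) and 4.61% (4.29 to 4.94). KLF5 had 25.1% (24.3 to 25.9) and 22.4% (21.7 to 23.0), so its share was lower although its own reads were higher. For KLF2 (2.39% and 2.35%) and for KLF11 (3.05% and 3.10%), the gene's interval in siNC overlapped its interval in siLINP1.

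**Figure D3:**
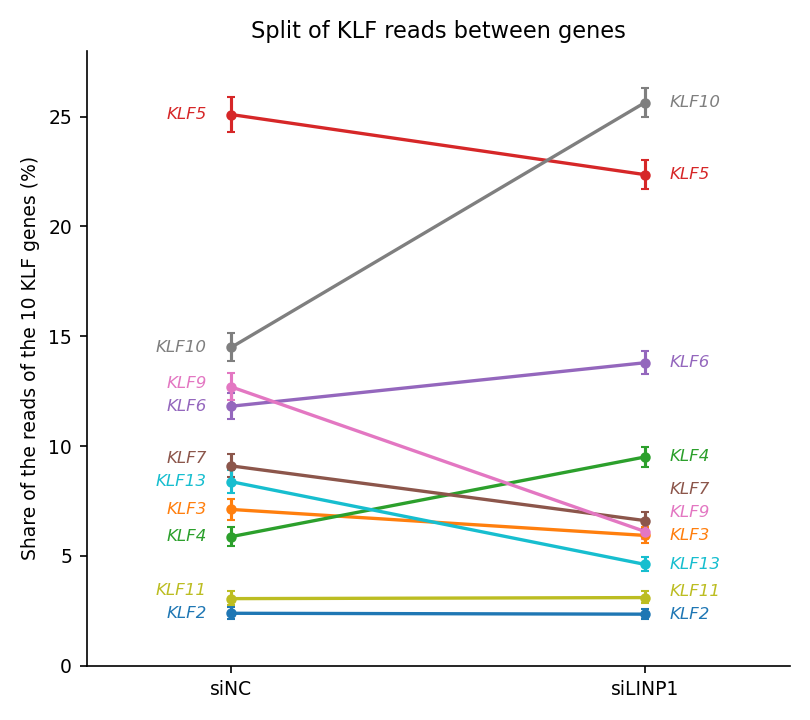
Share of the reads of the 10 KLF genes that each gene held in siNC (left) and siLINP1 (right), in percent, with 95% Clopper-Pearson intervals as bars and a line for each gene. KLF10 and KLF4 take larger shares in siLINP1 and KLF9 and KLF13 smaller ones, and KLF2 and KLF11 stay level near the bottom.

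The change of each gene was also set against that of every other as a ratio of read ratios, with an exact conditional interval. Of the 45 pairs, the interval excluded a ratio of 1 for 37 and held it for 8. The whole interval lay past 1.5-fold for 18 pairs. KLF10 and KLF4, which lie in different branches, had the most similar large changes, with a ratio of 1.09 (0.981 to 1.22). The fold change of KLF10 was 1.74 times (1.497 to 2.02) that of its relative KLF11, and 1.51 times (1.39 to 1.66) that of KLF6. The fold change of KLF4 was 1.64 times (1.37 to 1.98) that of KLF2, the gene that shares the ERK5 route with it. The widest distance was between KLF10 and KLF9, a ratio of 3.67 (3.32 to 4.06). KLF13 and KLF9 lay close together at 1.14 (1.01 to 1.30). These ratios compare the reads of 2 libraries and not the conditions.

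The remaining KLF genes were mostly little read. KLF15, a regulator of glucose and amino acid metabolism, went from 124 reads in siNC to 221 in siLINP1. This is a log2 fold change of 1.04 (0.72 to 1.37). KLF15 was the only one of the 4 other KLF genes with at least 10 reads that was past 1.5-fold, against 14.4% higher and 13.0% lower among all such genes. KLF12, with 465 and 402 reads, was at -0.00058 (-0.20 to 0.20) on that scale. KLF16, with 442 and 333 reads, was at -0.20 (-0.41 to 0.0094), and KLF14 had 38 and 36 reads. KLF17 had 5 and 3 reads, KLF8 had 1 and 0, and KLF1, the erythroid factor, had 0 and 1. These 3 genes were under the minimum of 10 reads. The 95% upper bound for a count of 0, taken without a lower bound, is about 3 reads. KLF pseudogenes can share reads with their parents. KLF2P1 had 8 and 14 reads and KLF2P4 had 12 and 16 reads, few beside the 272 and 382 reads of KLF2.

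The SP genes encode the relatives of the KLF factors that bind the same GC-rich sites. Of the 9 SP genes, 7 had at least 10 reads, with 3 higher and 2 lower by more than 1.5-fold. Over all genes with at least 10 reads, 14.4% were higher and 13.0% were lower by this fold. SP8, a factor of limb and nervous system development, went from 123 reads in siNC to 378, a log2 fold change of 1.83 (1.53 to 2.13). It was the only SP gene with its whole interval past 1.5-fold. SP4 had 196 and 289 reads (0.77, 0.50 to 1.04). SP2 had 563 and 307 reads (-0.67, -0.87 to -0.46). SP1, the broadly expressed activator, had 2408 and 1859 reads (-0.16, -0.25 to -0.08), and SP3 had 1038 and 1014 (0.18, 0.05 to 0.30). SP6 had 15 and 6 reads and SP9 had 6 and 10, with intervals that held no change. Both are in the counts past 1.5-fold, SP6 as lower and SP9 as higher. SP5 and SP7 had at most 2 reads in either library. The median of the 7 SP genes was 0.18, and that of the 4 other KLF genes was 0.07, both below the 0.63 of the 10 genes described. Those 10 were chosen with earlier results of these data known, so this difference can follow from the choice.

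**Figure D4:**
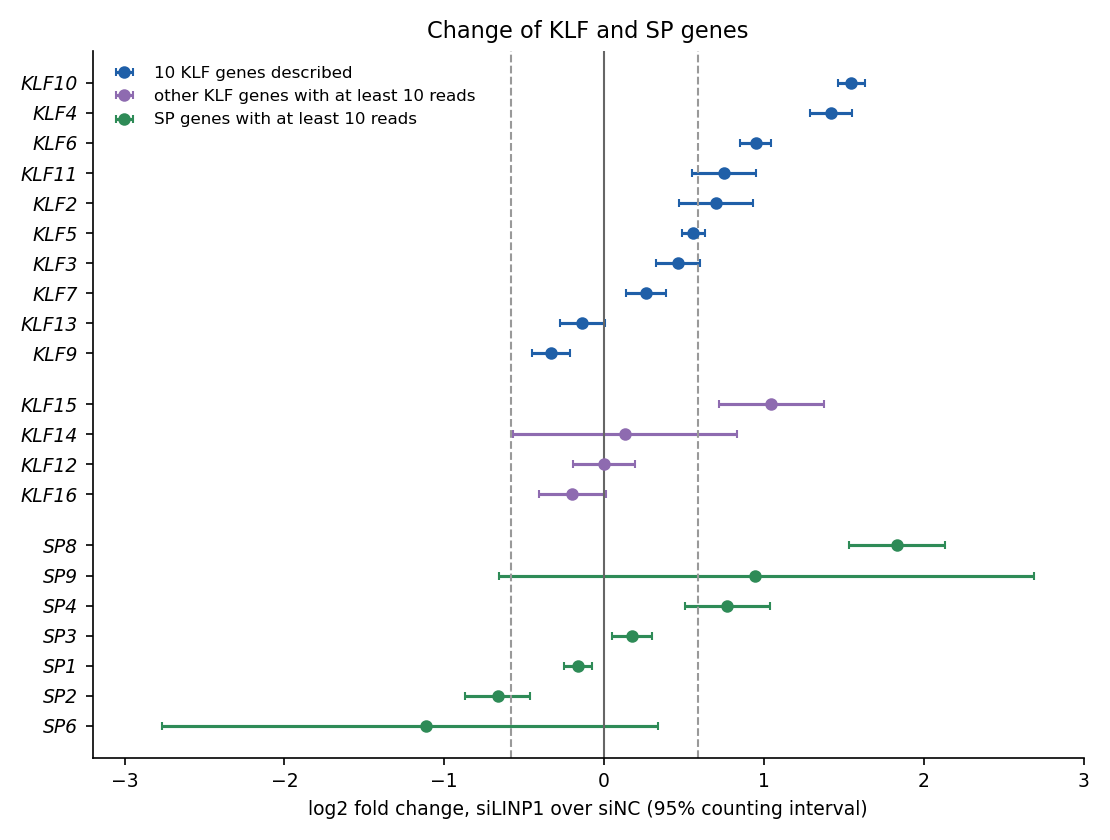
Log2 fold change of siLINP1 over siNC with 95% counting intervals for the 10 KLF genes (blue), 4 other KLF genes (purple) and 7 SP genes (green) with at least 10 reads; dashed lines mark 1.5-fold. KLF10, KLF4, KLF6, KLF15 and SP8 have their whole interval to the right of the upper dashed line.

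Genes that act with or upstream of the KLF factors were counted against the same background of 8.72% higher and 6.77% lower, since all those with at least 10 reads also had at least 100. Of 11 corepressors and coactivators, all were within 1.5-fold, with a median log2 fold change of 0.09. The best read of them, SIN3B, had 2758 reads in siNC and 2539 in siLINP1. For the ERK5 route, the kinase cascade that leads through MEF2 factors to KLF2 and KLF4, 1 of 7 genes was higher and 0 were lower. That gene was MEF2C, with 112 and 159 reads (0.71, 0.36 to 1.08). MAPK7, which encodes ERK5 itself, had 325 and 213 reads (-0.40, -0.66 to -0.15), and was chosen for mention once its value was known.

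Of 10 ubiquitin enzymes that act on KLF proteins, 1 was lower by more than 1.5-fold and 0 were higher. FBXO32, a ligase subunit known to act on KLF4, had 595 reads in siNC and 300 in siLINP1, a log2 fold change of -0.78 (-0.98 to -0.58). None of 7 genes of TGF-beta signalling, the pathway known to induce KLF10 and KLF11, passed 1.5-fold. These are RNA counts, and the activity of the pathway was not tested. TGFB1 had 2435 and 1615 reads (-0.38, -0.47 to -0.29). SMAD7, the inhibitory SMAD, had 331 and 284 reads (-0.01, -0.25 to 0.22). SMAD7 was chosen for mention once its value was known.

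Of the 6 genes for the glucocorticoid receptor and its targets beside KLF9, 5 had at least 10 reads, and 2 of them were higher by more than 1.5-fold. PER1, a clock gene, had 2048 reads in siNC and 3536 in siLINP1 (1.00, 0.92 to 1.08). NR3C1, which encodes the receptor, had 1029 and 1528 reads (0.78, 0.66 to 0.90). FKBP5, TSC22D3 and SGK1, other targets of the receptor, had log2 fold changes of 0.22, -0.03 and 0.09, with intervals that held no change. These 3 genes were chosen for mention once their values were known. KLF9 was lower as given above, and a link between the receptor and these genes was not tested.

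Of 11 genes described as targets of KLF factors, 2 were higher and 2 were lower by more than 1.5-fold, with a median log2 fold change of 0.19. With so few genes these counts are near the 14.4% and 13.0% of all genes with at least 10 reads. CCL5, a chemokine gene and a target of KLF13, had 340 reads in siNC and 2000 in siLINP1, a log2 fold change of 2.77 (2.60 to 2.94). The interval of KLF13 itself held no change, as given above, and a link between KLF13 and CCL5 was not tested. The other 3 genes past 1.5-fold were thinly read: NOS3 had 7 and 17 reads, THBD had 16 and 9, and MAOA had 43 and 20. CDKN1A, a target of KLF4 and KLF6, had 15108 and 9682 reads (-0.43, -0.47 to -0.40). Whether any KLF factor acted on these targets here was not tested. NOS3, THBD, MAOA and CDKN1A were chosen for mention once their values were known.

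The promoters of the KLF genes were then searched for the GC box that KLF and SP proteins bind, to show what the genes share in sequence. RefSeq windows of 300 bases around annotated start sites (build GRCh38.p14) were at hand for 8 of the 10 genes, not for KLF3 and KLF10, and gave 13 windows. On either strand, the letters GGGCGG were in 8 of the 13 windows, against 45.0% of 35116 windows of all genes. Each of the 8 genes but KLF9 had the box in at least 1 window. A gene had up to 4 windows, and no share per gene was computed over all genes. The windows with the box were 69 to 80.7% G or C, and those without it 32.7 to 56.7%. The letters CACCC were in 7 of the 13 windows and 4 of the 8 genes, against 59.9% of all windows, so they were no more frequent here. Examples from the windows of KLF2, KLF4, KLF6 and KLF13, printed 5′ to 3′ along the gene, have the box in capitals (as its complement CCGCCC in KLF13).
KLF2, chr19:16324793-16324822, plus strand, box 21 bases upstream of the start: cctataaggcttGGGCGGgcccggccgcgg
KLF4, chr9:107489828-107489857, minus strand, 76 bases upstream: gaagaaagggagGGGCGGggcatgggagaa
KLF6, chr10:3785253-3785282, minus strand, 61 bases upstream: ggagccaggcggGGGCGGagggggaggctg
KLF13, chr15:31326796-31326825, plus strand, 27 bases upstream: gtggccccggccCCGCCCacccccggggcc
The box was found in genes that were higher (KLF2, KLF4, KLF6) and in KLF13, which was not. A match is a description of the letters and not of a bound site.

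Sites of factors of early response genes were in fewer of these windows than the GC box. With 13 windows, counts of 0 or 1 are too small to call these sites more or less frequent than over all windows. The cyclic AMP response element TGACGTCA was in 1 of the 13 windows, that of KLF11, against 1.85% of all windows. The CArG box of serum response factor was in 1 window of KLF7, against 1.29%. The AP-1 letters TGAGTCA or TGACTCA (the same site read on the other strand) were in 0 of the 13, against 4.95%. The KLF11 stretch has the element in capitals, 176 bases upstream of a start site.
KLF11, chr2:10044034-10044063, plus strand: atttccagccaTGACGTCAccccggtcctg

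AU-rich letters of unstable mRNAs were counted in the 3′UTR of the GENCODE canonical transcript on GRCh37. The heptamer TATTTAT was in 6 of the 10 KLF genes, once in each, against 38.0% of 11177 genes with at least 100 reads. It was in KLF2, KLF3, KLF5, KLF6, KLF7 and KLF11, and not in KLF4 and KLF10, the genes with the largest increase, nor in KLF9 and KLF13. Among genes with a 3′UTR of like length, the share with the heptamer ranged from 24.6% for KLF4 (899 bases) to 78.6% for KLF7 (7076 bases). It was 39.5% for KLF2, 67.8% for KLF3, 39.2% for KLF5, 61.8% for KLF6 and 50.9% for KLF11, and 58.7% for KLF9, 33.2% for KLF10 and 73.3% for KLF13. Most of the 10 genes have a 3′UTR longer than the median of 1410 bases, and 6 of 10 is near these shares. The site of KLF2 is shown as an example, with the heptamer in capitals.
KLF2, chr19:16437912-16437941 of GRCh37, plus strand, in the 3′UTR: actgtgactggTATTTATtggacccagaga
The pentamer ATTTA was in the 3′UTR of all 10 genes, from 2 sites in KLF4 to 20 in KLF7, whose 3′UTR is the longest of the 10. Per kilobase, KLF13 had the lowest density at 0.893 and KLF5 the highest at 3.03. Only KLF13 and KLF6 (1.69) lay below the median of 1.78 over the same 11177 genes. Of genes with a 3′UTR of like length, the share with as many sites or more ranged from 34.6% for KLF5 to 89.6% for KLF13.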

How the data were processed

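Total RNA of HSC-1 cells was sequenced, with 1 library per condition. Alignment was by Tophat2 to the hg19 (GRCh37) assembly, and HTSeq gave the counts. The submitters' processing notes also name HISAT2, HISAT and Bowtie2. The deposited values are raw read counts per gene. RPKM values were deposited too, and recomputing them from count, listed gene length and total count gave the same numbers. Versions, annotation and strand setting are not given in the sources used here. The table's 12 other columns of per-sample values were not used.

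Size factors by the median of ratios scaled the counts (1.08 for siNC and 0.930 for siLINP1), and genes with fewer than 10 reads in both libraries together were left out. Fold changes and log2 fold changes were taken on the scaled counts, not on RPKM, without a pseudocount. Their 95% intervals are Clopper-Pearson intervals on how a gene's reads divide between both libraries. Intervals of RPKM values are exact Poisson intervals, and intervals of ratios between genes come from the conditional odds ratio. PCR reads are not independent molecules, so all intervals cover counting error only.

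The genes and lists were chosen with earlier results of these data known. Named were the 10 KLF genes, LINP1, every other KLF and SP gene and, of each further list, up to 4 genes with at least 100 reads and the largest change past 1.5-fold, or the best read gene where none was. Others are marked as chosen once their values were known. 3′UTRs within 0.8 to 1.25 times a gene's length were called of like length. The tools were R 4.3.3 with edgeR 4.0.16 (TMM factors only) and Python 3.11.15 with scipy 1.17.1, numpy 2.4.6, pandas 2.3.3 and matplotlib 3.10.9.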

Additional observations from a re-analysis of the deposited data

How the results depend on the processing

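Tried in turn were pseudocounts of 1 and 5, minima of 1 and 100 reads, and scaling by TMM or by total count (CPM). All 10 KLF genes kept their direction under these 6 alternatives, and the median of the 10 log2 fold changes ranged from 0.62 to 0.71. The minima could not alter the values of the 10 genes, which all had at least 654 reads. Pseudocounts are small beside such counts, so only the scalings could move these values much. The number of KLF genes higher by more than 1.5-fold was 5 under each of them except CPM, which added KLF5 and gave 6. CPM raises every log2 fold change by 0.082. The number of genes past 1.5-fold depended on the minimum of reads. A minimum of 1 read (29515 genes) gave 7048 higher and 6456 lower genes, and a minimum of 100 (13336 genes) gave 1163 and 903, against 2863 and 2573 for a minimum of 10 (19840 genes). No library could be left out, and no paired analysis was possible because each condition had 1 library. Depth limits KLF2 and KLF11 most among the 10 genes, with 654 and 853 reads in total, and the genes KLF1, KLF8, KLF17, SP5 and SP7, which had fewer than 10 reads, were given no fold.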
